A study of Mus musculus with 6 samples.

Results

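Chemokines and their receptors were followed in megakaryocyte progenitors of C57BL/6 mice that carry GATA1s, a GATA1 transcription factor that lacks its amino-terminal part. The genes were taken by symbol from the array's annotation: every gene whose name begins Ccl, Cxcl, Ccr, Cxcr, Xcl or Xcr followed by a digit, together with Cx3cl1 and Cx3cr1. This gave 50 of the 18193 named genes on the array, of which 33 were ligands and 17 receptors. Progenitors were sorted from bone marrow of adults aged 12 to 18 weeks (3 arrays) and from fetal liver at E13.5 (3 arrays). Cells of each tissue carried GATA1s, so the tissues are compared within that genotype and its own effect is not measured. The sort kept cells that lacked lineage antigens and Sca-1 and that bore c-kit, CD150 and CD41. The labels call the samples biological replicates without saying how many animals each holds, and the p-values therefore reflect spread among samples that may be partly technical.

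Chemokines are small secreted proteins that direct cell movement, and they are classed by the spacing of their first cysteines as CC, CXC, C and CX3C ligands. They act on receptors coupled to inhibitory G proteins, and many ligands share a receptor. In bone marrow, the stromal ligand CXCL12 holds progenitors that carry CXCR4 and guides megakaryocytes towards sinusoids. Megakaryocytes also store chemokines in platelet granules, chiefly Pf4 and Ppbp, whose symbols lie outside the rule used here.

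Values are MAS5 signals, a linear intensity for each probe set. A control level of 10.6 marks the 95th percentile of 27 bacterial control probe sets on these arrays, and signals below it carry no usable level. Differences are bone marrow minus fetal liver on the log2 scale with the standard error of the limma fit. In such bulk samples, fewer cells of a type and less RNA per cell cannot be told apart. The median over all probe sets lay between 65.9 and 74.6 for bone marrow and between 52.0 and 59.1 for fetal liver. Values with ± are means with the SD of 3 arrays, and differences with ± carry their standard error. Of the genes behind the sort, Itga2b (CD41) averaged 4418 ± 540 in bone marrow, against 4521 ± 1049 in fetal liver. Slamf1 (CD150) had 2116 ± 242 in bone marrow and 2219 ± 1063 in fetal liver. Kit was higher in bone marrow by 0.62 ± 0.16 (adjusted p = 0.0141, limma) and Gata1 lower by a log2 difference of -0.49 ± 0.12 (adjusted p = 0.0138, limma).

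Chemokine genes that differed were mostly higher in bone marrow. With all 50 members in a fit without a filter on low signals, 17 were higher in bone marrow, 2 were lower and 31 were not called at an adjusted p of 0.05. In that fit 12.6% of 18193 genes were called higher and 10.7% lower, 23.2% in all. The median difference was 1.27 over the 50 members and -0.04 over all genes. All 3 bone marrow arrays lay above all 3 fetal liver arrays for 21 members, below them for 3 and overlapped for 26, where the shares over all genes were 18.8% above and 19.9% below. After the filter, which keeps genes with a mean signal above 22.9, 21 members were tested. Of these 13 were higher and 2 lower, against 18.3% and 17.8%, or 36.1% in either direction, of the 11645 genes tested. The same 13 and 2 members had arrays without overlap, as had 23.7% and 26.7% of tested genes. Of the members called, 11 were at least 4-fold higher, against 5.4% of tested genes. Members that pass the filter through their level in bone marrow alone enter that count because they differ, so the 13 are given only as a description. Among all 50, 34 had a geometric mean above the control level in bone marrow and 25 in fetal liver, and 16 lay at or below it in both.

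**Figure D1:**
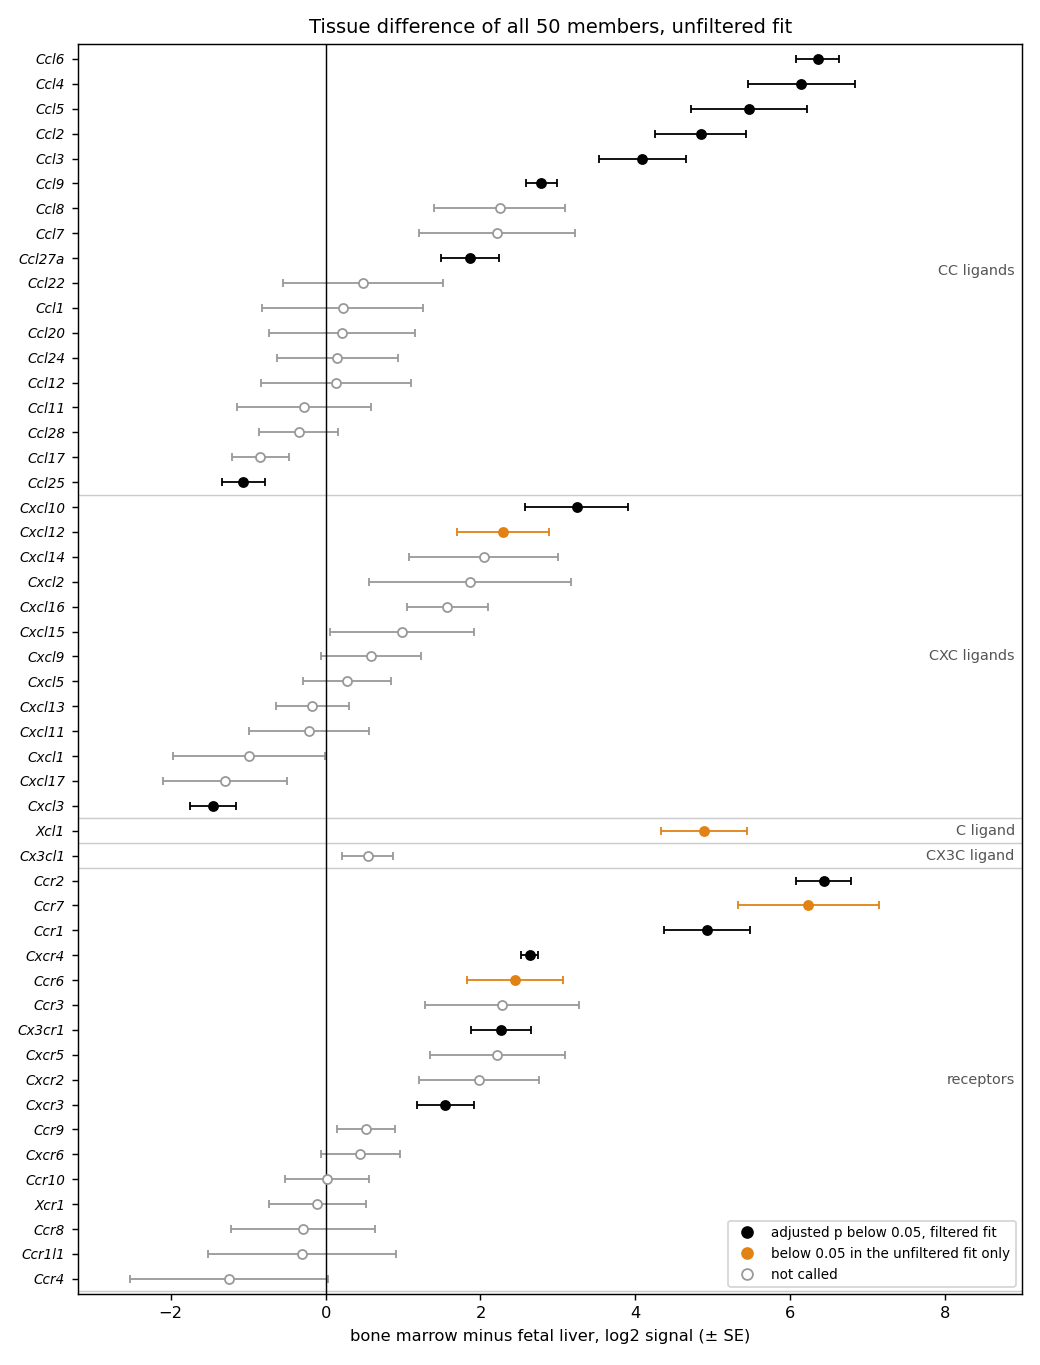
Log2 signal difference, bone marrow minus fetal liver, for each of the 50 chemokine and receptor genes, with bars for the SE of the unfiltered limma fit over 3 arrays a tissue. Black points passed an adjusted p of 0.05 in the filtered fit and orange points in the unfiltered fit alone. Called points lie right of 0 except those of Ccl25 and Cxcl3.

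Cxcr4, the receptor of CXCL12, had the smallest adjusted p of the receptor genes. Its signal was 4513, 4875 and 4481 on the bone marrow arrays, against 784, 641 and 817 on the fetal liver arrays. The groups did not overlap and each was tight, so the difference of 2.64 ± 0.11 (6.21-fold, adjusted p = 9.16e-07) was many times the spread between replicates. All 6 arrays lay far above the control level, and Cxcr4 transcript was therefore measured in both tissues. Its ligand gene Cxcl12, a stromal product, gave a weak signal that lay above the control level in bone marrow. Cxcl12 had 31.8, 18.0 and 23.5 in bone marrow and 3.21, 4.67 and 7.64 in fetal liver. All 3 fetal liver values lay below the control level. Cxcl12 failed the filter and was called only without it (adjusted p = 0.0199), with a difference of at least 2.24-fold. Its other 2 probe sets, with 3 and 2 fetal liver arrays below the control level, gave at least 3.48-fold and 2.76-fold in the same direction. They were at 40.1 ± 20.3 and 30.7 ± 8.09 in bone marrow. On the stromal and endothelial marker list, 5 of 10 genes were tested, and 0 were higher in bone marrow and 2 lower. The list summed to between 1999.5 and 2321 in bone marrow and between 2654.5 and 3057 in fetal liver. Of the 10 genes, 2 had means below the control level in bone marrow and 3 in fetal liver. The stromal gene Lepr was among these low genes, at 8.84 ± 5.96 in bone marrow and 6.19 ± 1.66 in fetal liver. It does not stand for the list, most of whose genes had means above the control level.

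Ccr2, the receptor that draws monocytes out of marrow, had signals of 1178, 882 and 918 in bone marrow and 19.5, 7.07 and 10.7 in fetal liver. Every bone marrow array was far above every fetal liver array, where 1 of 3 lay below the control level. The difference was 6.43 ± 0.35 (86.4-fold, adjusted p = 2.73e-06), which ranked 51 among the 11645 tested genes. The other 3 Ccr2 probe sets lay below the control level on all fetal liver arrays and were at least 6.12-fold, 12.1-fold and 3.21-fold higher in bone marrow. The ligand gene Ccl2, which encodes the main attractant for Ccr2-bearing cells, had 413, 263 and 278 in bone marrow and 14.8, 3.79 and 22.6 in fetal liver. It too was separated between tissues (4.85 ± 0.58, adjusted p = 2.46e-04). Ccl7, Ccl8 and Ccl12, which are close relatives of Ccl2, failed the filter and were not called without it (adjusted p = 0.152, 0.0873 and 0.943). Their highest signal on any array was 25.2, for Ccl8 on a bone marrow array.

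Ccr1, a receptor of neutrophils and monocytes for several CC ligands, had 199, 433 and 419 in bone marrow and 22.7, 4.68 and 12.1 in fetal liver. The tissues were separated (4.93 ± 0.55, adjusted p = 1.64e-04), and bone marrow replicate 1 was the lowest of its group. Ccl6, a rodent myeloid chemokine, had 1189, 2203 and 2007 in bone marrow and 24.0, 25.1 and 15.9 in fetal liver. No fetal liver array came near the bone marrow arrays (6.35 ± 0.28, 81.8-fold, adjusted p = 1.07e-06). A second probe set lay below the control level on all 3 fetal liver arrays and gave at least 58.0-fold. Ccl9, a related rodent chemokine of myeloid cells, had 1193, 1057 and 978 in bone marrow and 113, 181 and 184 in fetal liver. Unlike Ccl6 it kept a signal above 100 on every fetal liver array, and its difference was 2.78 ± 0.20 (6.88-fold, adjusted p = 1.29e-05). A second Ccl9 probe set, with 29.2, 18.8 and 43.3 in fetal liver, gave a smaller difference of 1.57 ± 0.45 (adjusted p = 0.0344 over all probe sets).

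Ccl3, Ccl4 and Ccl5 encode inflammatory CC chemokines, and Ccl3 is also known as an inhibitor of progenitor proliferation. Ccl3 had 1499, 442 and 607 in bone marrow and 89.2, 48.4 and 18.8 in fetal liver. The groups did not overlap, although each varied widely (4.09 ± 0.58, adjusted p = 6.31e-04). Ccl4 had 707, 460 and 589 in bone marrow and 31.7, 4.70 and 3.62 in fetal liver. Since 2 of the fetal liver arrays fell under the control level, the difference was at least 37.6-fold (adjusted p = 1.79e-04). Ccl5 had 103, 243 and 249 in bone marrow and 5.68, 1.24 and 10.3 in fetal liver. All 3 fetal liver arrays were below the control level, so Ccl5 was at least 17.3-fold higher in bone marrow (adjusted p = 4.87e-04).

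**Figure D2:**
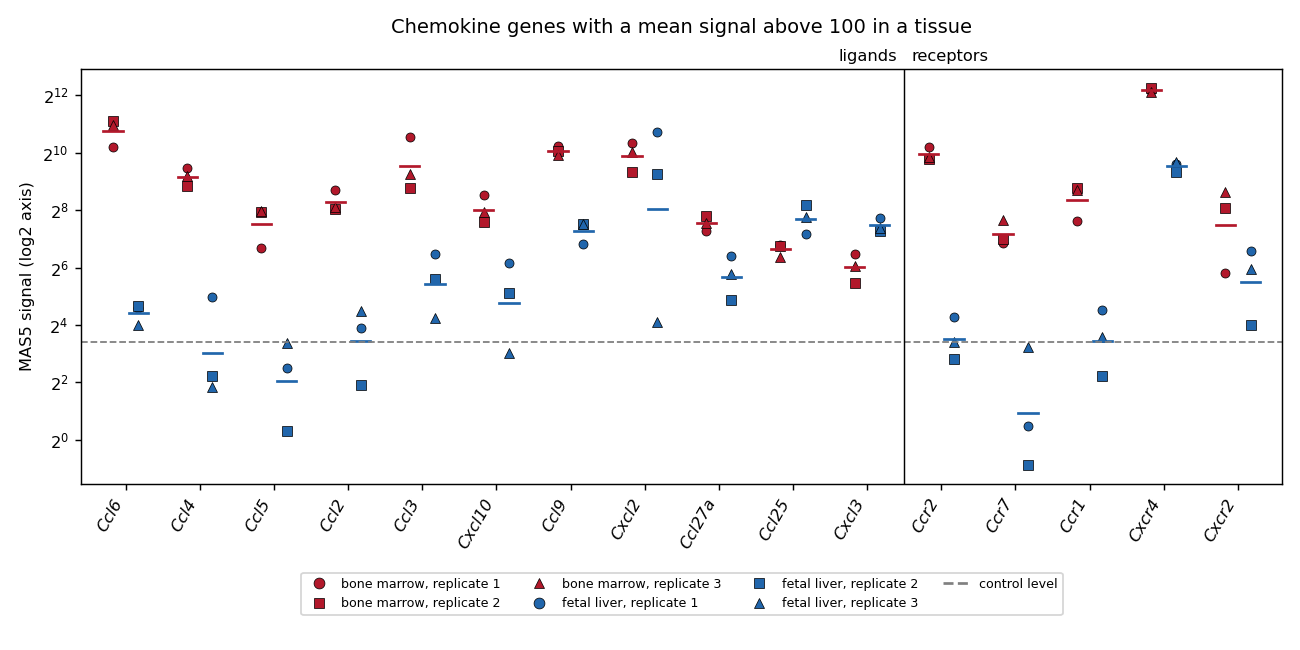
MAS5 signal of each array (log2 axis) for the 16 members whose geometric mean passed 100 in a tissue, ligands left and receptors right. Red marks are bone marrow and blue marks fetal liver, with a bar at each geometric mean, and the dashed line is the control level of 10.6. The tissues are separated for 14 of the genes and overlap for Cxcl2 and Cxcr2.

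By position, the CC ligand genes of mouse chromosome 11 form neighbouring groups in the RefSeq annotation. Ccl5, Ccl9, Ccl6, Ccl3 and Ccl4 lie side by side, and all 5 were tested and higher in bone marrow, beside 18.3% of all tested genes. In the neighbouring group of 6 genes (Ccl2, Ccl7, Ccl11, Ccl12, Ccl8 and Ccl1), only Ccl2 passed the filter, and it was called. Ccl7 and Ccl8 had all bone marrow arrays above all fetal liver arrays but were not called without the filter. Of the 7 receptor and related genes grouped on chromosome 9 (Ccr9, Cxcr6, Xcr1, Ccr1, Ccr1l1, Ccr3 and Ccr2), 3 were tested. The 2 called were Ccr1 and Ccr2. The 5 genes from Cxcl5 to Cxcl2 on chromosome 5, of which 3 were tested, held 1 call, Cxcl3, in the opposite direction. Genes that failed the filter were mostly weak, so the lack of a call there does not show equal levels.

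Of the CXC ligands of the neutrophil receptor, only Cxcl3 was called, with or without the filter, and it was lower in bone marrow. Cxcl2, an inducible neutrophil attractant, had 1303, 636 and 1046 in bone marrow and 1675, 618 and 17.2 in fetal liver. The tissues overlapped, and fetal liver replicate 3 alone made the mean difference positive (1.87 ± 1.34, adjusted p = 0.310). Without that array it was -0.09 (adjusted p = 0.889). Cxcl3, which acts on the same receptor, had 89.9, 44.5 and 66.9 in bone marrow and 214, 156 and 166 in fetal liver. All bone marrow arrays were below all fetal liver arrays, a log2 difference of -1.46 ± 0.29 (2.74-fold, adjusted p = 0.00430). Cxcl5 was not called (0.27 ± 0.56, adjusted p = 0.735), and its sign turned under quantile normalization and median centring. Cxcl1 failed the filter, at 78.2, 8.999 and 5.67 in bone marrow and 90.1, 22.4 and 15.5 in fetal liver, with replicate 1 highest in each tissue. Their receptor gene Cxcr2 had 55.9, 267 and 396 in bone marrow and 95.03, 16.2 and 62.0 in fetal liver. The groups overlapped through bone marrow replicate 1, and Cxcr2 was not called (1.99 ± 0.79, adjusted p = 0.0782). Without bone marrow replicate 1 it was 2.83 (adjusted p = 0.0118) and without fetal liver replicate 1 it was 2.51 (adjusted p = 0.0371).

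Interferon-inducible Cxcl10 and its receptor gene Cxcr3 were both higher in bone marrow. Cxcl10 had 369, 191 and 243 in bone marrow and 72.3, 34.5 and 8.13 in fetal liver, without overlap (3.24 ± 0.67, adjusted p = 0.00533). Cxcr3, best known on T cells, had 69.3, 63.7 and 53.0 in bone marrow and 26.6, 17.9 and 19.7 in fetal liver (1.55 ± 0.32, adjusted p = 0.00553). Cxcl9 and Cxcl11, which share that receptor, failed the filter and were not called without it (adjusted p = 0.599 and 0.883).

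The windows of 250 bases before the RefSeq start (build GRCm38.p6) are shown for 4 ligand genes, since Cxcl10, Cxcl2 and Cxcl3 carry matches to the same motif and moved differently, while Ccl3 holds none. Capitals mark matches, on either strand, to an NF-κB-type motif (GGG, any 3 bases, T, any base, CC) and to an interferon-response motif (GAAA, any 2 bases, GAAA). Cxcl10 lies on the minus strand at chr5:92348890-92349139. Cxcl2 lies on the plus strand at chr5:90903649-90903898 and Cxcl3 on the plus strand at chr5:90785851-90786100. Ccl3 lies on the minus strand at chr11:83649379-83649628. Each is written 5′ to 3′ on the gene's strand.
Cxcl10: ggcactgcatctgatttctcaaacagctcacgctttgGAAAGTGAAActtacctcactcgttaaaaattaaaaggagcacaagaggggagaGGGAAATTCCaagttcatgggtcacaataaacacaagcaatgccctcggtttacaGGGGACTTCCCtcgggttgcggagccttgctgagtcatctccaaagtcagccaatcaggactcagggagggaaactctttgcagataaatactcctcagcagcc
Cxcl2: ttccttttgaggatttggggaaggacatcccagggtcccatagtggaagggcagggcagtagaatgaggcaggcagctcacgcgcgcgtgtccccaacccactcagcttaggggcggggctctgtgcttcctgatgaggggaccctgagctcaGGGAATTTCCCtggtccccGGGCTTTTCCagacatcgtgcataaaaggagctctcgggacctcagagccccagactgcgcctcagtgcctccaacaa
Cxcl3: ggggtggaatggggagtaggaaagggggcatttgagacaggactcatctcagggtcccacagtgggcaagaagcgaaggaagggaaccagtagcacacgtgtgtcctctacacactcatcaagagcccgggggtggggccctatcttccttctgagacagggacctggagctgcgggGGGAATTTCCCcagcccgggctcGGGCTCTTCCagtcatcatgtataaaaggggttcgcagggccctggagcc
Ccl3: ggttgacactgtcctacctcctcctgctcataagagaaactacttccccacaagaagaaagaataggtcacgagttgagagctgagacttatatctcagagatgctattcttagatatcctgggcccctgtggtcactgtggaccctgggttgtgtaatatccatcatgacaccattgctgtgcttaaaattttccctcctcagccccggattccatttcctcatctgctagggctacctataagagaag

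The Cxcl10 window held 2 separate stretches matching the NF-κB-type motif and 1 interferon-response match, which did not overlap. The Cxcl2 and Cxcl3 windows each held 2 such NF-κB-type stretches and no interferon-response match. In each of these 3 windows 1 stretch held 2 overlapping matches. For Cxcl2 and Cxcl3 these were 1 on each strand. For Cxcl10 both fit the motif on the gene's strand, and 1 of them fits it on the other strand as well. Windows were on hand for 37 of the 50 members, 41 windows in all. The NF-κB-type motif was in 29.3% of these windows and in 14.9% of the 32851 windows of all genes. The interferon-response motif was in 4.88% and 2.98%, and the GATA motif AGATAA (either strand) in 17.1% and 9.99%. The C/EBP-type motif TTGCNNCAA (either strand) was in 4.88% and 1.74%, and the TATA motif TATAAA (gene strand) in 24.4% and 7.59%. A match is a description of letters and not a measured site.

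Fetal liver replicate 1 was highest and replicate 3 lowest of the fetal liver arrays for 4 of the 21 tested members, Cxcl2, Ccl3, Cxcl10 and Ccl4. The share of all tested genes with this order was not counted, so the counts given here describe single genes only. For Ccl4, replicates 2 and 3 were at 4.70 and 3.62, both below the control level, so which was lowest cannot be read. Ccl2 had replicate 3 highest instead, at 22.6. All 3 Ccl5 values in fetal liver lay below the control level, so their order cannot be read. Of the 13 inducer genes found, 6 had the order of Cxcl2 (Tnf, Nfkb2, Nfkbia, Nfkbiz, Tnfaip3 and Zfp36) and the other 7, with Il1b, Il6, Irf1 and Rela among them, did not. Nfkbiz had 572, 228 and 111 in fetal liver, and Tnfaip3, a brake on NF-κB, had 350, 158 and 76.0. Tnf had 264, 63.0 and 40.3 there, while Il1b had 94.1, 95.6 and 125. On the bone marrow arrays replicate 1 was highest for Cxcl2, Ccl3, Cxcl10, Ccl4 and Tnfaip3. It was also highest for members without that fetal liver order, among them Ccr2, Ccl2, Ccl9 and Cxcl3.

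**Figure D3:**
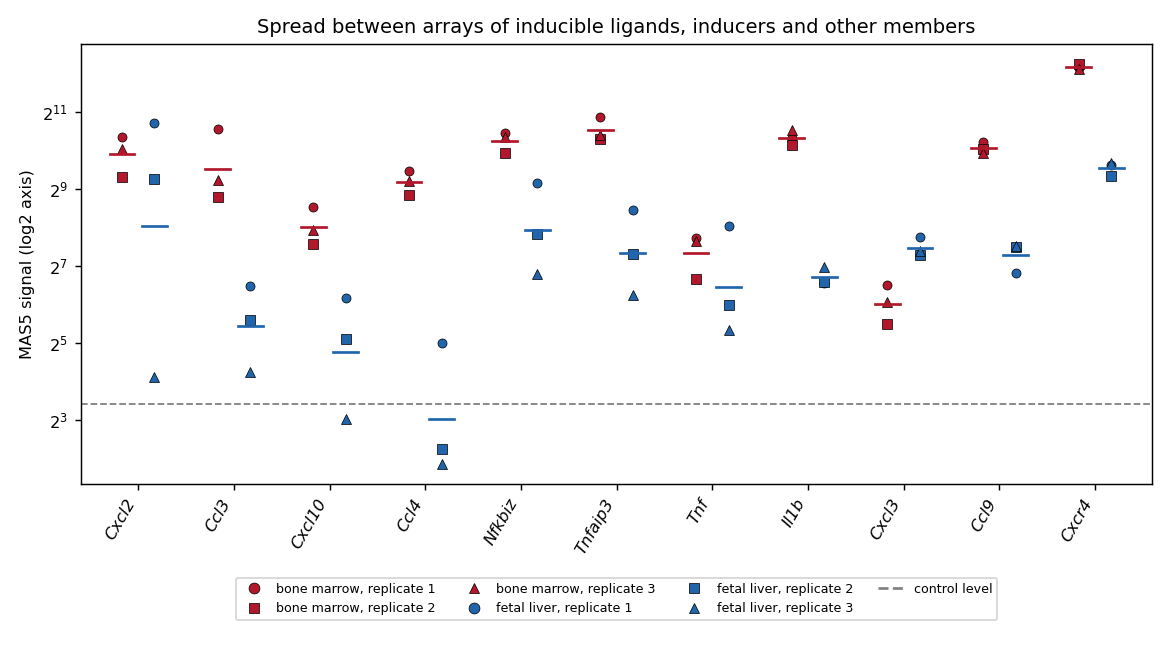
MAS5 signal of each array (log2 axis) for inducible ligands (Cxcl2, Ccl3, Cxcl10, Ccl4), 4 inducer genes (Nfkbiz, Tnfaip3, Tnf, Il1b) and 3 steadier members (Cxcl3, Ccl9, Cxcr4), bone marrow in red left of fetal liver in blue. Bars are geometric means and the dashed line is the control level of 10.6. Fetal liver replicate 3 (blue triangle) is the lowest fetal liver mark for Cxcl2, at 17.2, but not for Cxcl3, Ccl9 or Cxcr4.

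Ccl25, the thymus and gut ligand of Ccr9, had 111, 107 and 83.5 in bone marrow and 146, 287 and 217 in fetal liver. Bone marrow was lower on every array, by a log2 difference of -1.06 ± 0.27 (2.09-fold, adjusted p = 0.0140), and without bone marrow replicate 3 the call was lost (adjusted p = 0.0531). A second Ccl25 probe set was also lower on every bone marrow array but was not called (-0.82 ± 0.32, adjusted p = 0.111 over all probe sets, limma). Ccr9 itself was not called, at 74.6 ± 4.13 in bone marrow and 56.2 ± 28.2 in fetal liver (adjusted p = 0.284). Without fetal liver replicate 1 it was called, higher in bone marrow by 0.90 (adjusted p = 0.0419). With the mean of its probe sets the Ccr9 difference was 0.02 (adjusted p = 0.97, limma). Ccl27a, a skin ligand of Ccr10, had 155, 225 and 189 in bone marrow and 84.0, 29.5 and 54.9 in fetal liver (1.87 ± 0.37, adjusted p = 0.00403). Its probe set is of a kind that can bind related transcripts, so the signal may include those. Ccl17, a ligand of Ccr4, was at 48.9 ± 18.9 in bone marrow and 85.8 ± 23.3 in fetal liver and was not called (-0.84 ± 0.34, adjusted p = 0.0846). It passed the threshold with array weights (-0.87, adjusted p = 0.0235), under quantile normalization (-1.18, adjusted p = 0.0370), under median centring (-1.18, adjusted p = 0.0224) and without bone marrow replicate 2 (-1.14, adjusted p = 0.0410).

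Ccr7, which leads dendritic cells and lymphocytes to lymph nodes, had 117, 129 and 203 in bone marrow and 1.39, 0.548 and 9.37 in fetal liver. It failed the filter through its fetal liver values and was called without it (adjusted p = 8.59e-04), with a difference of at least 13.6-fold. Xcl1, a ligand made by T and NK cells, had 83.6, 90.8 and 76.8 in bone marrow and 5.23, 1.90 and 2.29 in fetal liver. It was at least 7.86-fold higher in bone marrow without the filter (adjusted p = 1.85e-04), while its receptor gene Xcr1 was below the control level on all 6 arrays. Ccr6, a receptor of B cells and some T cells, was at 25.2 ± 7.31 in bone marrow and 4.84 ± 2.14 in fetal liver, at least 2.30-fold higher without the filter (adjusted p = 0.0178). Cx3cr1, a receptor of monocytes and macrophages, was at 97.4 ± 24.6 in bone marrow and 20.6 ± 6.43 in fetal liver (2.26 ± 0.36, adjusted p = 0.00119). Its second probe set had geometric means below the control level in both tissues and was not called (adjusted p = 0.592 over all probe sets). The ligand gene Cx3cl1 was not called either (0.54 ± 0.30, adjusted p = 0.187).

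The other members gave little signal. Of the 29 that failed the filter, 4 were called without it (Xcl1, Ccr7, Ccr6 and Cxcl12), and 16 had means at or below the control level in both tissues, where no direction can be read. Those 16 had geometric means from 0.590 to 7.44 in bone marrow and from 0.722 to 7.57 in fetal liver. They include Ccr3, Ccr4, Ccr8 and Cxcr5, receptors of eosinophils, T cells and B cells. Of the 18 members with several probe sets, 0 had probe sets called in opposite directions.

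Related genes were read from lists of the same pathway. Counts on these lists stand beside 18.3% of all tested genes called higher and 17.8% called lower. A list gene, too, can pass the filter through its bone marrow level alone, so counts and medians of tested genes are descriptive. Pf4 and Ppbp, the platelet granule chemokines, were not called between tissues. Pf4 had 8310, 8778 and 8191 in bone marrow and 5904, 9117 and 8020 in fetal liver (0.16 ± 0.14, adjusted p = 0.405). Ppbp had 2019, 1187 and 1083 in bone marrow and 178, 1157 and 1375 in fetal liver, where replicate 1 stood apart from the others (1.07 ± 0.66, adjusted p = 0.239). Both transcripts were thus present in each tissue with overlapping arrays, and neither interval excludes a difference.

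Receptors that bind chemokines without G protein signalling, or that present related ligands, gave 2 higher and 0 lower of 3 tested. Ackr3, a scavenging receptor for Cxcl12, failed the filter and ran the other way. It had 1.47, 0.387 and 0.879 in bone marrow and 11.8, 27.1 and 33.8 in fetal liver. Every bone marrow array lay below the control level, and without the filter Ackr3 was at least 2.08-fold lower in bone marrow (adjusted p = 0.00195). Ccrl2, which presents chemerin, had 443, 255 and 379 in bone marrow and 91.1, 54.3 and 48.6 in fetal liver (2.49 ± 0.30, adjusted p = 2.31e-04). Ackr1, the Duffy antigen receptor known from erythroid cells and venules, had 581, 783 and 848 in bone marrow and 63.2, 226 and 381 in fetal liver (2.05 ± 0.54, adjusted p = 0.0160). The Ackr1 call was lost without bone marrow replicate 2 (adjusted p = 0.0509) and when the prior did not follow intensity (adjusted p = 0.052, limma). Ackr4, a scavenger of Ccl19, Ccl21 and Ccl25, was not called (0.55 ± 0.23, adjusted p = 0.0905).

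Most signalling genes behind the receptors were not called, as was the case for all tested genes, of which 36.1% were called. Of 18 tested G protein subunits and effectors, 4 were higher in bone marrow and 1 lower, with a median of 0.09. Over all tested genes, 18.3% were higher and 17.8% lower. Elmo1, a partner of Dock2 in Rac activation, was at 1043 ± 149 in bone marrow and 508 ± 70.7 in fetal liver (1.04 ± 0.15, adjusted p = 7.49e-04). Pik3r5, a subunit of the PI3K that responds to G proteins, was higher by 1.59 ± 0.37 (adjusted p = 0.00915). The subunit gene Gng2 was higher by 0.91 ± 0.26 (adjusted p = 0.0252, limma), a call lost under 4 of the alternatives. Rac2 was lower in bone marrow (-0.46 ± 0.12, adjusted p = 0.0141), a call lost without bone marrow replicate 1 (adjusted p = 0.0507). Ptk2b, a kinase activated downstream of chemokine receptors, was called (0.31 ± 0.09, adjusted p = 0.0244), but its sign turned under median centring and with the mean of its probe sets, and the call was lost without bone marrow replicate 2 or 3 or fetal liver replicate 3. The main inhibitory subunit gene Gnai2 was not called (0.11 ± 0.07, adjusted p = 0.260).

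Of 12 tested genes that switch receptors off, 3 were higher and 1 lower in bone marrow, with a median of 0.23, beside the same shares of all genes. The receptor kinase gene Grk3 was at 1955 ± 88.8 in bone marrow and 641 ± 189.5 in fetal liver (1.65 ± 0.18, adjusted p = 1.39e-04). Rgs1 and Rgs2, inhibitors of G protein signalling, were higher by 1.81 ± 0.40 (adjusted p = 0.00739) and 1.90 ± 0.44 (adjusted p = 0.00952). For both, fetal liver replicate 1 was highest and replicate 3 lowest, as for Cxcl2. Arrb1, which encodes an arrestin, was lower (-0.50 ± 0.13, adjusted p = 0.0146), a call lost without bone marrow replicate 3 (adjusted p = 0.0526).

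Proteases able to trim chemokines gave 7 higher and 1 lower of 10 tested, with a median of 2.72. Over all 11 proteases found, tested or not, the median was 1.36. Elane (5.70 ± 0.17, adjusted p = 2.33e-07), Ctsg (4.08 ± 0.19, adjusted p = 1.20e-06) and Prtn3 (1.36 ± 0.09, adjusted p = 8.08e-06) are neutrophil granule proteases. Mmp14, a membrane metalloprotease, was at least 15.3-fold higher (adjusted p = 1.29e-05). The lower gene was Mmp2, a secreted metalloprotease, at 48.2 ± 3.27 in bone marrow and 138 ± 19.6 in fetal liver (-1.51 ± 0.23, adjusted p = 0.00102). Dpp4, which trims CXCL12, was higher by 0.68 ± 0.14 (adjusted p = 0.00624), a call lost under median centring (adjusted p = 0.0942). Other chemoattractant receptors gave 3 higher and 0 lower of 6. The formyl peptide receptor gene Fpr2 was at 2637 ± 1336 in bone marrow and 11.6 ± 5.70 in fetal liver (adjusted p = 4.85e-06), and the complement receptor gene C5ar1 was at least 210.8-fold higher (adjusted p = 5.00e-05). Ltb4r1, the leukotriene B4 receptor, was higher by 1.66 ± 0.30 (adjusted p = 0.00273).

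Genes that induce chemokines, or that are induced beside them, gave 10 higher and 0 lower of 12, with a median of 1.90. The cytokine gene Il1b (3.63 ± 0.17, adjusted p = 1.36e-06) and the interferon-induced factor Irf1 (2.15 ± 0.12, adjusted p = 2.85e-06) had the smallest adjusted p. The calls of Nfkb2, Relb and Rela, subunits of NF-κB, were lost under 7, 5 and 3 of the alternatives, and Rela was at 0.08 under median centring (adjusted p = 0.607). Tnfaip3 was higher by 3.19 ± 0.45 (adjusted p = 6.34e-04), and Il6 at least 7.32-fold (adjusted p = 0.00103). Over the 7 lists together, 29 of 63 tested genes were higher and 3 lower, beside 18.3% and 17.8% of all genes.

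**Figure D4:**
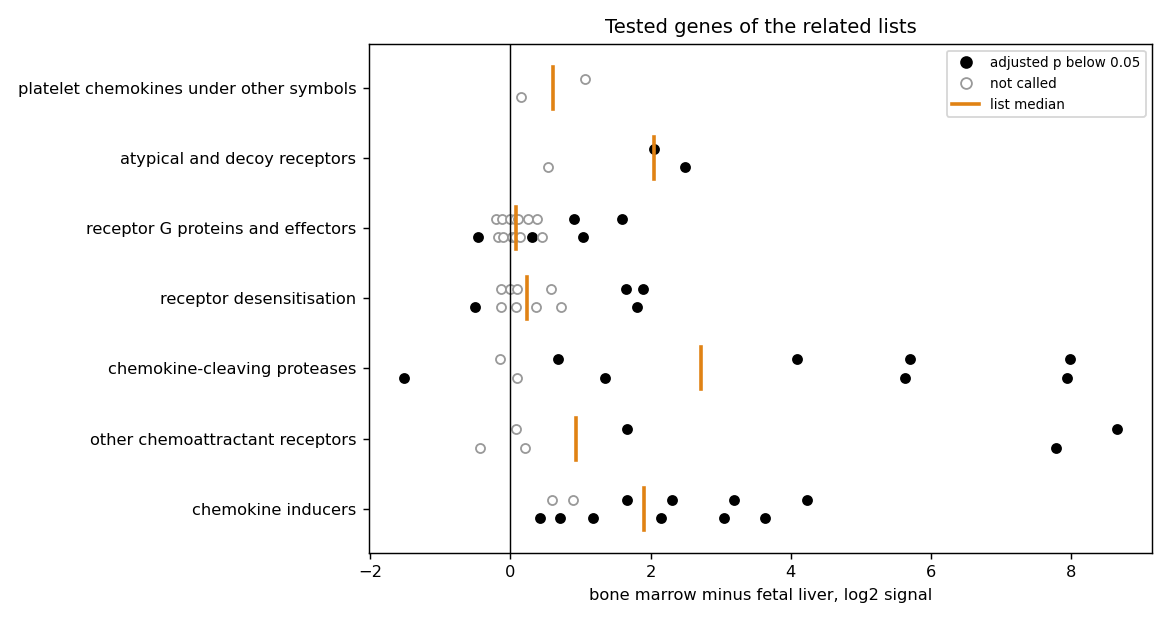
Log2 signal difference, bone marrow minus fetal liver, of the tested genes in the 7 related lists, with 1 point a gene, filled where the adjusted p was below 0.05, and an orange bar at each list's median. G protein and desensitisation genes gather near 0, with medians of 0.09 and 0.23, while protease and inducer genes lie to the right, with medians of 2.72 and 1.90. Over all genes found on the lists, tested or not, the protease and inducer medians were 1.36 and 2.10.

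Markers of other blood cells were higher in bone marrow together with these chemokine genes. A marker can pass the filter through its bone marrow level alone, so the counts of tested markers are descriptive. Beside them stand 18.3% of all tested genes called higher and 17.8% called lower. All 10 neutrophil markers tested were higher, and they summed to between 47167 and 65359 in bone marrow, against 3070 to 4723 in fetal liver. S100a9 had 12555 ± 1579 in bone marrow and 448 ± 285 in fetal liver. Mpo, also a gene of early myeloid cells, had 5605 ± 435 in bone marrow and 3144 ± 390 in fetal liver, and S100a8 had 10310 ± 1328 in bone marrow and 145 ± 85.1 in fetal liver. The neutrophil sum was lowest on bone marrow replicate 1, which was also the lowest bone marrow array for Cxcr2, Ccr1, Ccl6, Ccl5 and Ccl27a. That array was the highest of its group for Ccr2, Ccl2, Ccl3, Ccl4, Ccl9, Cxcl10, Cxcr3 and Cx3cr1. Sums of the B cell, T and NK cell, mast cell and dendritic cell lists were also lowest on it. All 11 tested monocyte and macrophage markers were higher, at 11902 to 12508 against 2396 to 3396 in fetal liver. The monocyte genes Lyz2, Csf1r and Cd68 differed by 1.46 ± 0.15, 3.48 ± 0.35 and 1.54 ± 0.20, and 4 of 13 members lay below the control level in fetal liver. B cell markers gave 6 higher of 7 tested, with sums of 2807 to 4551 in bone marrow and 1288 to 1489 in fetal liver. T and NK cell markers gave 3 higher of 4 tested, with sums of 4396 to 4595 in bone marrow and 791 to 1077 in fetal liver, where 9 of 11 lay below the control level. Without the filter, 9 of those 11 genes were called higher. Mast cell and basophil markers were higher for 5 of 5 tested, with sums of 4007 to 5193 in bone marrow and 267 to 373 in fetal liver. Of the 9 mast cell and basophil genes found, 5 were called without the filter. Their median difference was 0.84 over the 9, against 4.03 over the tested genes, and 5 lay below the control level in fetal liver. Dendritic cell markers gave 4 higher and 1 lower of 5 tested, with sums of 2016 to 2279 in bone marrow and 1255 to 1365 in fetal liver. Eosinophil markers gave 1 higher of 2 tested, with sums of 714 to 1705 in bone marrow and 386 to 619 in fetal liver. Megakaryocyte markers gave 0 higher and 2 lower of 10, with sums of 23461 to 28014 in bone marrow and 20156 to 36152 in fetal liver, so the sorted cells' own transcripts were present in both. The part of other blood cells in the chemokine differences was not tested.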

How the data were processed

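RNA of 6 samples was measured on Affymetrix mouse arrays of 45101 probe sets. The deposited values are linear intensity signals. The authors made them with MAS5 according to the submitters' processing notes, and no version is named there. Each array's trimmed mean was 500. Genes were named from the 34945 probe sets with a single symbol; 932 listed several and 9160 none.

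Signals were log2-transformed without an offset. Each gene was represented by its probe set of highest mean, and the 11645 genes above the 40th percentile of mean log2 signal (22.9) were tested with limma 3.58.1 in R 4.3.3. Tissue was the single term, the prior followed intensity, and Benjamini-Hochberg adjustment ran over all genes tested. All 50 members were also fitted without the filter. A bound divides the bone marrow geometric mean by that of fetal liver after raising fetal liver arrays below the control level to it. The number of arrays limits precision.

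The members, lists and tests were chosen with earlier results of these data known. Values of every array are given for members with a geometric mean above 100 in a tissue; other genes are named by small adjusted p within their list or by brightness, or were picked after their values were seen. Alternatives were other filters, normalizations, offsets, priors, array weights, probe set means, a replicate block and leaving out each array. Testing each probe set on its own was added after seeing the data.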

Additional observations from a re-analysis of the deposited data

How the results depend on the processing

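All 13 higher and 2 lower calls among the 21 tested members kept their direction under the 17 alternatives wherever the gene was tested, and the exception in significance was Ccl25, lost without bone marrow replicate 3 (-0.93, adjusted p = 0.0531). Cxcl2 turned to -0.094 without fetal liver replicate 3 (-0.094 to 3.21 when each array was left out), and the uncalled Cxcl5 turned to -0.46 with array weights, -0.066 under median centring, -0.027 under quantile normalization, -0.23 without bone marrow replicate 1 and -0.25 without fetal liver replicate 1 (-0.25 to 0.68 over the arrays left out); the cause was not tested. Array weights called Cxcl2 (4.20), Cxcr2 (2.33) and Ccl17 (-0.87). A filter at the 60th percentile left 5 members, of which 4 were higher and 0 lower (limma), and 48 related genes, of which 21 were called; fewer genes were tested there. Leaving out 1 array gave 13 to 15 higher members, 1 to 3 lower members, 27 to 38 related genes and 2865 to 4436 genes of all tested. Lower members numbered 1 without bone marrow replicate 3 and 3 without bone marrow replicate 2. Median centring called 6725 genes instead of 4208, moved the median difference of all genes to -0.38 from -0.04 and the share of calls that were higher to 20.04% from 50.7%, and the direction of differences of about that size depends on the centring. The members' calls were 13 higher and 3 lower there. Replicate numbers did not pair the samples: deviations of same-numbered arrays correlated at -0.08, 0.07 and -0.11. A replicate block gave 13 higher and 2 lower members, 35 related genes and 3847 of all genes. Signal over background limits the 16 members at or below the control level in both tissues.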

Other observations

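Probe sets that list several genes, 4 of which name a chemokine, were left out of the comparison. Those of the duplicated Ccl27 genes had 266 ± 32.6 and 187 ± 39.98 in bone marrow and 81.9 ± 25.02 and 89.8 ± 37.1 in fetal liver, as means with the SD of 3 arrays. Their differences of 1.74 and 1.11 had the sign of the Ccl27a probe set and were not tested. The probe set of the Ccl21 genes, ligands of Ccr7, had 5.55 ± 2.68 in bone marrow and 3.08 ± 1.27 in fetal liver, below the control level of 10.6 in both. That of the Ccl19 genes, also ligands of Ccr7, had 4.21 ± 3.05 in bone marrow and 1.64 ± 0.29 in fetal liver. Of the ligands of Ccr7, none therefore gave a usable level in either tissue on these probe sets.

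Alb, a hepatocyte gene, was at 7.74 ± 7.55 in bone marrow and 28.3 ± 2.31 in fetal liver, and Dlk1, also on the hepatoblast list, was at 13.8 ± 4.96 in bone marrow and 1097 ± 223 in fetal liver. Of 4 tested hepatoblast markers, 2 were higher in bone marrow and 1 was lower, so Alb and Dlk1 do not stand for the list. The median difference was 0.65 over the tested markers and -0.17 over all 7 found.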
